A study of Mus musculus with 24 samples.

Results

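Expression of 8 transcription factors that pattern the foregut and lung, Nkx2-1, Foxa1, Foxa2, Hnf4a, Gata6, Sox2, Sox9 and Cdx2, was followed in mouse cell lines grown from small cell lung cancer. The members were chosen by name, with earlier results of these data known. All 8 of them were found among the 25239 genes of the deposited table and passed the filter for testing, which 14104 genes passed. Levels are given as TPM, a measure of RNA scaled for the length of the transcript and for the total of the library. Differences and changes are on the log2(TPM + 1) scale, which shrinks the fold of weakly expressed genes.

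The endoderm is divided along the body axis by transcription factors of this kind. Nkx2-1 marks the part of the foregut that becomes lung and thyroid, Sox2 the airway and esophagus, and Cdx2 the intestine, while Hnf4a is a nuclear receptor of liver, stomach and intestine. Foxa1, Foxa2 and Gata6 open and activate genes across most endodermal organs, and Sox9 is found in the tips of the growing lung and in intestinal crypts. In lung tumor cells, loss of Nkx2-1 is known to be followed by gene expression of the stomach type, in which Foxa1, Foxa2 and Hnf4a take part.

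The lines came from single tumors of Rb1 fl/fl; Trp53 XTR/XTR; Rbl2 fl/fl mice that also carried Rosa26 FlpO-ER. Inhaled adenovirus with Cre under the CMV promoter had deleted Rb1 and Rbl2 and trapped Trp53 in an off state, so that every library, controls included, lacked Rb1 and Rbl2. Treatment with 4-hydroxytamoxifen (4-OHT) removes the trap and restores p53, and ethanol was the vehicle. The 3 Type D lines (4711-1, 4711-18 and 4716-11) die after restoration, and the 3 Type V lines (4711-11, 4716-10 and 4716-14) survive it. After 72 h, 4 libraries were made of every line, namely Control (vehicle), Control + CsA (cyclosporin A, a drug that binds cyclophilins), Restored (4-OHT) and Restored + CsA, which makes 24 libraries in 8 groups of 3 lines. A type is thus 3 lines. The study's methods bound the age of the mice at tumor initiation and the time until tumors were excised, while the age of each mouse and the number of mice behind these lines are not given in the sources used here.

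Trp53 was examined first as a check of the labels. It lay between 10.5 and 15.3 TPM in the 12 libraries without restoration and between 181 and 253 TPM in the 12 libraries with it. Between 11853 and 12651 genes per library reached 1 TPM, and sequencing depth is unknown because TPM does not keep it. The label small cell lung cancer was set against 12 neuroendocrine markers. Chga and Grp were listed at 0 in all 24 libraries, and the markers summed to between 5.87 and 31.4 TPM in Type D and between 16.6 and 88.3 TPM in Type V. Insm1 reached 3.39 TPM in Type D and 49.6 TPM in Type V, and Ncam1 was between 4.46 and 27.3 TPM in all libraries. Defining neuroendocrine markers such as Chga were thus absent. Epithelial keratins were abundant, with Krt18 at 2360 to 5115 TPM in Type D and 49.4 to 762 TPM in Type V. Fibroblast markers moved with the types, since the 8 genes of that list summed to between 0.304 and 1.93 TPM in Type D and between 75.6 and 572 TPM in Type V, with Lum at no more than 0.844 TPM and Thy1 at no more than 0.0873 TPM in any library. The endothelial markers did not pass the filter, and the immune list summed to at most 57.9 TPM, of which Cd68 reached 55.3 TPM, with Cd3e listed at 0 throughout. Fewer cells of a type and less RNA per cell cannot be told apart in bulk libraries.

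The types also differed in Y-linked genes, which were looked at after values had been seen. Ddx3y, Uty, Kdm5d and Eif2s3y together lay between 14.0 and 64.9 TPM in the Type D libraries and at 0 in 11 of the 12 Type V libraries, the other one being at 0.134 TPM. Xist was above 1 TPM only in line 4716-14, at 71.6 to 283 TPM. The type of a line and its Y-linked expression cannot be told apart in these 6 lines.

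To place the factors that separated the types most, the 250 bases before the annotated start sites of Hnf4a, Cdx2 and Sox2 are shown from RefSeq (build GRCm38.p6), 5′ to 3′ along the gene. Hnf4a has a pair of promoters, the upstream one known from stomach and pancreas and the downstream one from liver, and their start sites are 40298 bases apart. Gene-level TPM does not tell which start was used. Capitals mark any of 6 short motifs, searched on both strands without counting overlaps between motifs apart. For FOX factors the letters searched were TGTTTNC. Those searched for GATA factors were AGATAA. A single site of the kind that HNF4 binds in pairs was searched as AAAGTCCA. For CDX factors the search used TTTATNG. For SOX factors it used ACAATG. The letters taken for NKX2-1 were CACTTG.
Hnf4a, upstream start, chr2:163506607-163506856 (+): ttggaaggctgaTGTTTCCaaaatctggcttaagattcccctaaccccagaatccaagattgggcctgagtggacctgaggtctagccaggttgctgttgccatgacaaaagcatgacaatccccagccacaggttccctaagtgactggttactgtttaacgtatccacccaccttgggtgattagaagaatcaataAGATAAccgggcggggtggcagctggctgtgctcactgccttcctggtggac
Hnf4a, downstream start, chr2:163546905-163547154 (+): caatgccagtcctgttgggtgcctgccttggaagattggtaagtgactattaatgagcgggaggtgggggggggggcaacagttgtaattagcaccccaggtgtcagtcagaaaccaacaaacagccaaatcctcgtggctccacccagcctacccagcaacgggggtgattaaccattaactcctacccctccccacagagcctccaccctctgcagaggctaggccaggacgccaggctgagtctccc
Cdx2, chr5:147307250-147307499 (-): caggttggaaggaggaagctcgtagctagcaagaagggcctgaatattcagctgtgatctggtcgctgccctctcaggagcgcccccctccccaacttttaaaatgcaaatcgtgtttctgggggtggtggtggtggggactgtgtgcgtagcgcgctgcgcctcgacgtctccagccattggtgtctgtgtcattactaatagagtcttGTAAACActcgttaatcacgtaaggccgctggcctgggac
Sox2, chr3:34649745-34649994 (+): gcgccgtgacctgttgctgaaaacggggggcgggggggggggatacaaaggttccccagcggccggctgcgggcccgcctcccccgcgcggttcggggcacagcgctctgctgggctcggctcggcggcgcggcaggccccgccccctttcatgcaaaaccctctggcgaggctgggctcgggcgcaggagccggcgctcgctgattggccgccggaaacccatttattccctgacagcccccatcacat
The FOX letters were found at bases 238 to 232 before the upstream Hnf4a start and at bases 40 to 34 before the Cdx2 start. GATA letters were found at bases 52 to 47 before the upstream Hnf4a start. No motif of the 6 was in the windows of the downstream Hnf4a start or of Sox2. Of 32851 RefSeq windows of this length, 17.8 percent hold the FOX letters, 9.99 percent the GATA letters, 1.01 percent the HNF4 letters, 9.81 percent the CDX, 10.7 percent the SOX and 11.6 percent the NKX2-1 letters. A match is a description of the letters only, and windows were matched for 6 of the 8 factors.

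In the GENCODE annotation of GRCm38, Hnf4a lies at chr2:163506808-163572910 on the plus strand, Cdx2 at chr5:147300805-147307270 on the minus strand and Sox2 at chr3:34650405-34652461 on the plus strand. Foxa1 lies at chr12:57540628-57546916 and Foxa2 at chr2:148042877-148046969, both on the minus strand, and Sox9 at chr11:112782224-112787760 on the plus strand. TPM is a value of the whole gene and does not separate exons or transcripts.

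The first question was which of the factors differ between lines that die and lines that survive. Before restoration, 5 of the 8 factors were called, where called means a Benjamini-Hochberg adjusted p under 0.05 in limma and a difference of at least 1 log2 (8.83 percent of the 14104 genes tested were called in this comparison). Hnf4a, Cdx2, Gata6 and Foxa1 were higher in Type D and Sox2 was lower. The backgrounds for calls in 1 direction were 4.42 percent higher and 4.41 percent lower. The median difference of the 8 factors was 1.23 log2, against -0.12 log2 over all genes tested. Hnf4a and Gata6 belong to the signature of Type D lines that the study drew from these same Control libraries, so their direction here is not independent evidence. All 8 factors were chosen with earlier results of these data known. Their count and median beside those of all genes are thus a description and not independent evidence either. Over all treatments, the 12 Type D and the 12 Type V libraries did not overlap for the same 5 factors (7.35 percent of genes tested did not overlap in this way).

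**Figure D1:**
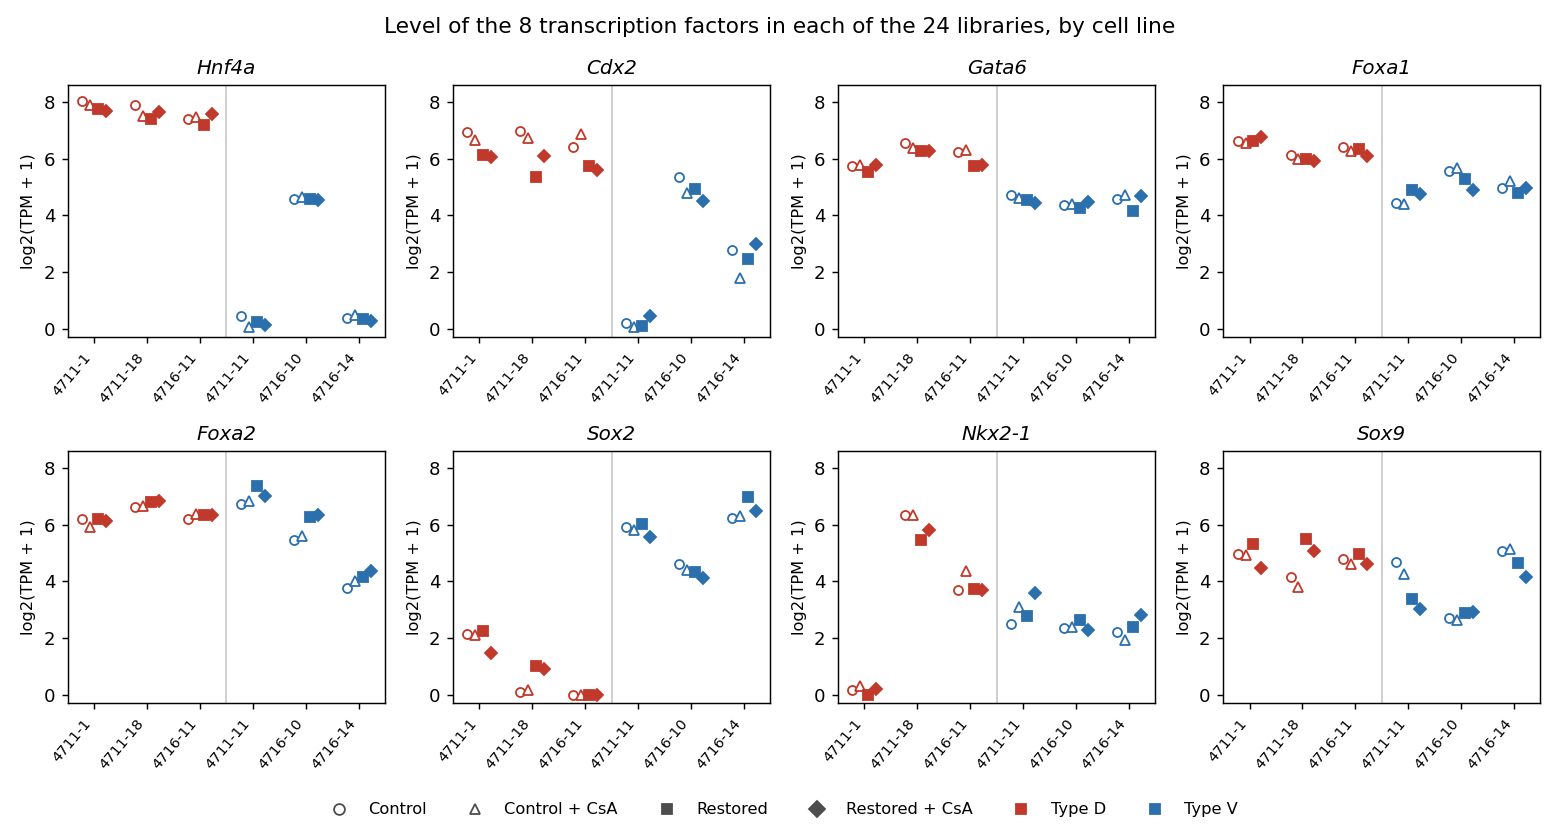
Level of each factor as log2(TPM + 1) (y axis) in the 4 libraries of each of the 6 cell lines (x axis), red for Type D and blue for Type V, open symbols for libraries without p53 restoration and filled symbols for libraries with it. Hnf4a was between 145 and 263 TPM in every Type D library, and among Type V lines only 4716-10 was above 1 TPM.

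Hnf4a had the largest difference of the 8. In Control its levels were 263, 235 and 167 TPM in the Type D lines 4711-1, 4711-18 and 4716-11. The Type V lines 4711-11, 4716-10 and 4716-14 had 0.367, 22.7 and 0.312 TPM. The Type D levels were thus all above those of Type V, and 4716-10 stood apart from the other Type V lines. The difference was 5.97 log2 (SE 1.34, adjusted p = 0.00547 by limma). It was 5.88 log2 in Control + CsA, 5.73 log2 in Restored and 5.98 log2 in Restored + CsA, with adjusted p of 0.00558, 0.00721 and 0.00573. Across the 12 libraries of a type, the lowest, median and highest levels were 145, 195 and 263 TPM in Type D and 0.0473, 0.339 and 24.4 TPM in Type V. Hnf4a ranked between the 90.2 and 95.5 percentile of the tested genes of a Type D library. Without line 4711-1 the calls in Control and Restored were lost (5.84 and 5.57 log2, adjusted p = 0.0513 and 0.0624). The antisense gene Hnf4aos, which overlaps Hnf4a, reached at most 5.53 TPM in any library, and the sources used here do not say whether strand was used in making the TPM values.

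Cdx2, the caudal-type homeobox factor of the intestine, followed Hnf4a at lower levels. Its Control levels were 122, 126 and 83.7 TPM in Type D. In Type V they were 0.148 TPM in 4711-11, 39.4 TPM in 4716-10 and 5.86 TPM in 4716-14. Line 4716-10 again held the highest level of Type V, and over all treatments its highest library (39.4 TPM) lay just under the lowest Type D library (39.8 TPM). The Control difference was 4.01 log2 (SE 1.27, adjusted p = 0.0436). In Control + CsA it was 4.54 log2 (adjusted p = 0.021). With p53 restored it was 3.25 log2 and, under CsA, 3.27 log2, and neither passed (adjusted p = 0.0941 and 0.105). The Control call was lost on leaving out any line but 4716-10, with adjusted p of 0.182, 0.132 and 0.143 without the Type D lines 4711-1, 4711-18 and 4716-11, and of 0.0522 and 0.148 without 4711-11 and 4716-14. It was also lost with a pseudocount of 0.1, with no filter on low values and with only the groups compared (adjusted p = 0.0987, 0.0978 and 0.125). The call in Control + CsA was lost with no filter and with only the groups compared (adjusted p = 0.052 and 0.0773), and without 4711-1, 4711-18, 4716-11 or 4716-14 (adjusted p = 0.0993, 0.0746, 0.111 and 0.103). Without 4716-10 the differences with p53 restored were called as well (4.46 log2, adjusted p = 0.00155, and 4.19 log2 under CsA, adjusted p = 0.00259).

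Gata6, a zinc finger factor of endoderm on chromosome 18, was present in every line and differed by less. Its Control levels were 52.6, 93.2 and 74.8 TPM in Type D and 25.2, 19.8 and 22.7 TPM in Type V. Across all treatments its lowest Type D library had 44.8 TPM and its highest Type V library 25.5 TPM, so that every Type D library was above every Type V library. The Control difference was 1.63 log2 (SE 0.23, adjusted p = 7.14e-05). It was called in each of the other treatments, at 1.58 log2 in Control + CsA, 1.52 log2 in Restored and 1.41 log2 in Restored + CsA.

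Foxa1, which opens closed chromatin for other endodermal factors, gave the same order. Its Control levels were 97.7, 68.9 and 84.8 TPM in Type D and 20.5, 46.6 and 30.0 TPM in Type V. Over all treatments Type D lay between 59.4 and 107 TPM and Type V between 20.1 and 49.4 TPM, without overlap. The Control difference was 1.41 log2 (SE 0.31, adjusted p = 0.00467), and it was 1.18 log2 in Control + CsA, 1.32 log2 in Restored and 1.38 log2 in Restored + CsA. The Control call was lost when the fit held only the groups compared (adjusted p = 0.0643). That in Control + CsA was lost without line 4711-1, 4716-11, 4711-11 or 4716-14, with adjusted p of 0.0747, 0.0827, 0.0719 and 0.0515. That in Restored was lost without 4716-14 (1.22 log2, adjusted p = 0.0573), and that in Restored + CsA without 4711-1 (1.13 log2, adjusted p = 0.0604).

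Foxa2, the close relative of Foxa1, did not pass between the types. Its Control levels were 72.1, 96.6 and 73.1 TPM in Type D and 105, 43.2 and 12.7 TPM in Type V. The Type V line 4711-11 had the highest level of all lines and the Type V line 4716-14 the lowest, so that Type D lay within the range of Type V. The Control difference was 1.01 log2 (95% confidence interval -0.68 to 2.71, adjusted p = 0.451). Without 4716-14 the difference in Restored was -0.38 log2, against 0.51 log2 with all lines. In Restored + CsA it was -0.25 log2 without that line and 0.52 log2 with it.

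Sox2, a factor of airway and basal cells, ran the other way. In Control it was 3.45, 0.0776 and 0 TPM in Type D and 59.2, 23.3 and 73.9 TPM in Type V. It was listed at 0 in all 4 libraries of 4716-11. Among Type V lines 4716-10, the line with most Hnf4a and Cdx2, had the least Sox2, at 16.2 to 23.3 TPM over its 4 libraries. The Control difference was -4.83 log2 (SE 0.84, adjusted p = 0.000659), and it was called in every treatment, at -4.75 log2 in Control + CsA, -4.69 log2 in Restored and -4.60 log2 in Restored + CsA. The overlapping transcript Sox2ot reached at most 2.77 TPM in any library.

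Nkx2-1, the factor that specifies lung epithelium, varied most among the Type D lines. In Control it was 0.116 TPM in 4711-1, 80.4 TPM in 4711-18 and 12.1 TPM in 4716-11, and 4.66, 4.08 and 3.62 TPM in Type V. The Type D lines thus lay on both sides of Type V, and over all treatments 4711-1 had at most 0.246 TPM. The Control difference was 1.05 log2 (95% confidence interval -2.30 to 4.41, adjusted p = 0.717). It rested on 1 line, since without 4711-18 it was -0.42 log2 (adjusted p = 0.877). In Control + CsA, leaving out 4711-1 gave 2.89 log2 (adjusted p = 0.0375), against 1.21 log2 with all lines (adjusted p = 0.656).

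Sox9, a factor of growing lung tips, was not called between the types in any treatment with all lines in the fit. Its Control levels were 30.6, 16.8 and 26.8 TPM in Type D and 24.8, 5.53 and 32.5 TPM in Type V. In Restored the Type D lines had 38.8, 44.1 and 30.4 TPM and the Type V lines 9.30, 6.43 and 24.1 TPM, without overlap. In Restored + CsA they had 21.3, 32.5 and 23.2 TPM against 7.21, 6.50 and 16.6 TPM. The share of all genes whose lines separate by type within a single treatment was not counted. The Restored difference was 1.62 log2 (95% confidence interval 0.34 to 2.91), but its adjusted p was 0.0828, and that in Restored + CsA was 1.35 log2 (adjusted p = 0.166). Without 4716-14 the Restored difference was 2.13 log2 and passed (adjusted p = 0.0215). In Control it was 0.49 log2 (adjusted p = 0.652), and -0.24 log2 without 4716-10.

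**Figure D2:**
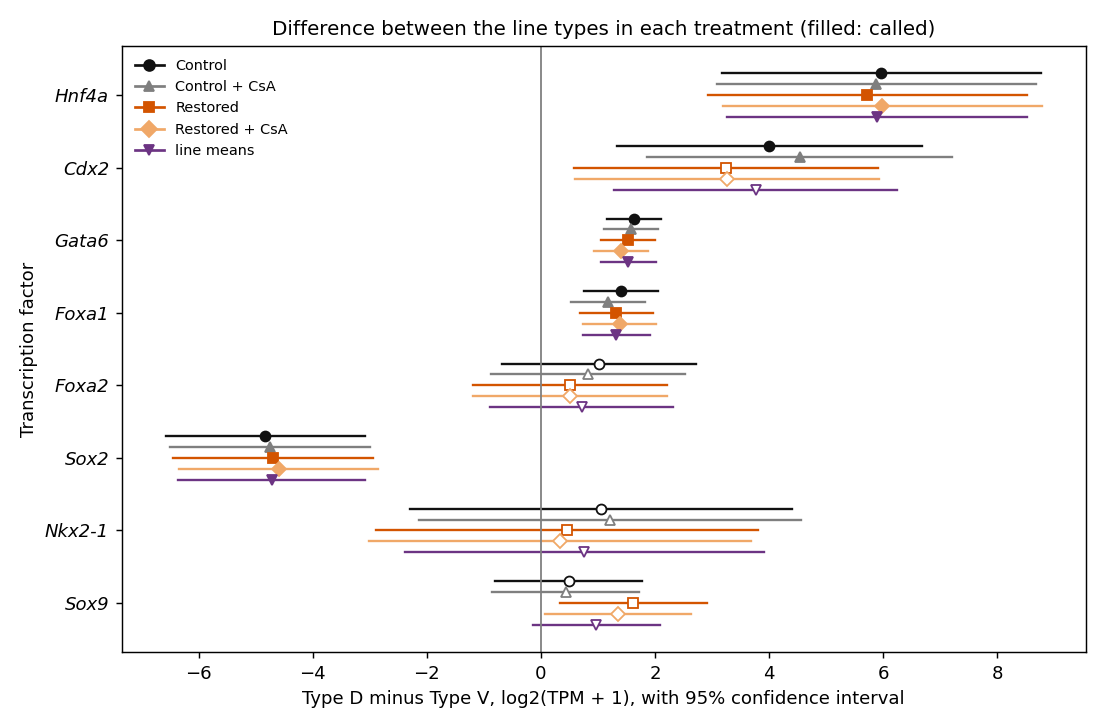
Type D minus Type V difference of each factor in log2(TPM + 1) (x axis) with its 95% confidence interval, for the 4 treatments and for the means of the 4 libraries of a line. Filled symbols were called. The intervals of Gata6, Foxa1, Hnf4a and Cdx2 were above 0 and that of Sox2 below 0 in every treatment. Cdx2 was not called with p53 restored or on line means.

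In Control + CsA the same 5 factors were called (9.88 percent of genes tested). In Restored and in Restored + CsA it was 4 factors, without Cdx2 (9.44 and 7.82 percent of genes tested). The 4 libraries of a line are not independent, so the types were also compared on 6 line means. There Gata6 (1.54 log2, adjusted p = 0.0112), Sox2 (-4.72 log2, adjusted p = 0.0148), Foxa1 (1.32 log2, adjusted p = 0.0299) and Hnf4a (5.89 log2, adjusted p = 0.0302) were called, which is 3 factors higher and 1 lower (5.76 percent of genes tested were called, 2.81 percent higher and 2.94 percent lower). Cdx2 was 3.76 log2 higher with an adjusted p of 0.0838. The line-mean count fell to 0 without 4716-11, to 1 without 4716-14, and to 2 without 4711-1 or without 4711-11, and it was 5 without 4716-10. The share of all genes called without a line was not counted.

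The spread of each factor over the 24 libraries was divided into 3 parts. For Gata6, Sox2, Hnf4a and Foxa1, between 80.2 and 89.9 percent of the sum of squares lay between the types. For Nkx2-1 and Foxa2 most of it lay between lines of a type, at 92.7 and 81.1 percent. Cdx2 was in between, with 63.7 percent between types and 33 percent between lines. Sox9 had the largest part among the 4 libraries of a line, 25.8 percent, against 0.158 percent for Hnf4a.

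**Figure D3:**
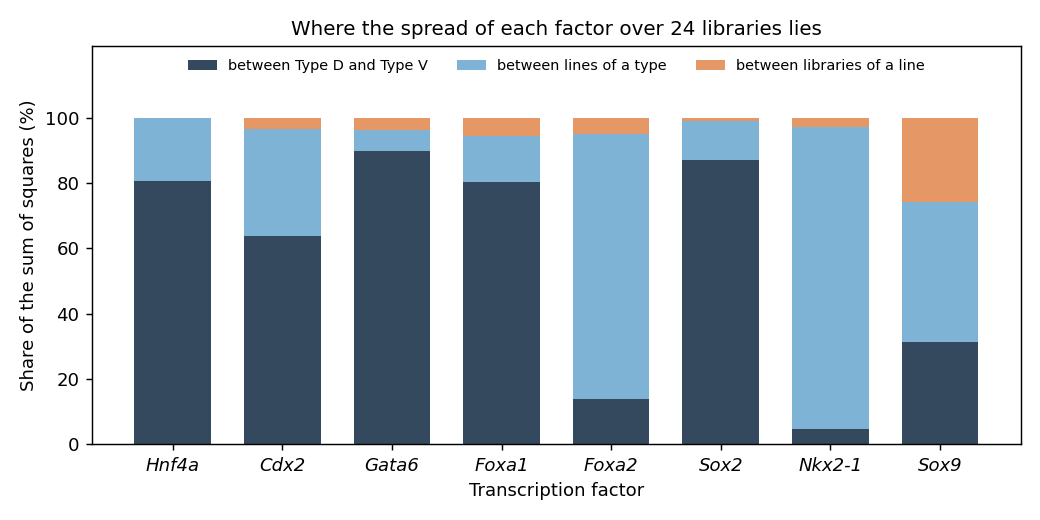
Share of the sum of squares of log2(TPM + 1) over 24 libraries (y axis, percent) that lies between the types, between lines of a type and between libraries of a line, for each factor (x axis). Types took 89.9 percent for Gata6 and 4.62 percent for Nkx2-1.

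The lines can be set in order for each factor. For Hnf4a the order by mean level over 4 libraries was 4711-1 (229 TPM), 4711-18 (196 TPM) and 4716-11 (170 TPM), whose ranges overlapped from one line to the next. Then came 4716-10 (23.2 ± 0.816 TPM, SD, n = 4 libraries), followed by 4716-14 and 4711-11, which overlapped at 0.299 and 0.169 TPM. For Cdx2 the 3 Type D lines overlapped at means of 75.2 to 89.7 TPM, and 4716-10 (29.3 TPM), 4716-14 (4.96 TPM) and 4711-11 (0.163 TPM) each lay apart from the next. For Sox2 the order ran without overlap from 4716-14 (91.4 TPM) through 4711-11 (56.4 TPM) and 4716-10 (19.8 TPM) to 4711-1 (3.07 TPM). The lines 4711-18 (0.531 TPM) and 4716-11 (listed at 0) were lower and, near 0, were not ordered. For Nkx2-1 the order ran from 4711-18 (64.6 TPM) and 4716-11 (14.0 TPM) through the Type V lines, which overlapped at means of 4.16 to 7.27 TPM, to 4711-1 (0.126 TPM). For Gata6 the 3 Type D lines overlapped from one to the next, as did the 3 Type V lines.

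The next question was whether restoring p53 moved the factors. Without pairing by line, none of the 8 was called in either type, with or without CsA, and none had an unadjusted p under 0.05 in limma. Restored minus Control called 6.93 percent of genes tested in Type D and 5.29 percent in Type V, and under CsA it was 5.41 and 4.61 percent. The 4 libraries of a line come from the same cells, so the same contrasts were also fitted with the line as a block, which called 11.2 and 8.66 percent of genes, and 9.69 and 7.97 percent under CsA. With the block 1 factor was called, Cdx2 in Type D without CsA, and that call was lost without line 4711-18. These comparisons without and with CsA use different libraries of the same lines. Pairs of a line without and with CsA are thus not independent. The share of all genes that move the same way in every pair was not counted.

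Cdx2 was lower with p53 restored in all 3 Type D lines. In Control and Restored it was 122 and 68.7 TPM in 4711-1, 126 and 39.8 TPM in 4711-18, and 83.7 and 52.9 TPM in 4716-11. Under CsA it was 101 and 66.4 TPM in 4711-1, 104 and 66.8 TPM in 4711-18, and 116 and 48.1 TPM in 4716-11. Each of the 6 pairs, which come from only 3 lines, was lower with restoration, with changes from -0.60 to -1.64 log2. The levels with and without restoration did not overlap in Type D. The share of all genes tested that show either pattern was not counted. The mean change was -1.04 log2, with an SE of 1.27 and an adjusted p of 0.703 without the block and an SE of 0.24 and an adjusted p of 0.0024 with it. In the fit with the block it was -0.74 log2 without 4711-18 (adjusted p = 0.067), and it was called without 4711-1 (-1.14 log2, adjusted p = 0.0133) and without 4716-11 (-1.23 log2, adjusted p = 0.00659). Under CsA it was -0.83 log2, which passed the adjusted p with the block (0.0117) but not the limit of 1 log2. In Type V the change was -0.28 log2 and, under CsA, 0.44 log2, with 4 of 6 pairs lower (adjusted p = 0.383 and 0.163 with the block). Of the cell type lists, the immune genes Cd68 (1.95 log2, adjusted p = 0.000134) and Cd79a (1.5 log2, adjusted p = 0.00246) were higher in the same Type D comparison, and their part in the result was not tested. The difference between the types was -0.76 log2 and did not pass with or without the block (adjusted p = 0.197 and 1, 2.44 and 0.0284 percent of genes called), so a fall particular to Type D was not shown. Cdx2 is in a module that the study derived from Control and Restored libraries of this series, so its direction is not independent evidence.

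Foxa2 was higher with p53 restored in every Type V pair. In Control and Restored it was 105 and 165 TPM in 4711-11, 43.2 and 77.0 TPM in 4716-10, and 12.7 and 16.98 TPM in 4716-14. The change was 0.62 log2, with an adjusted p of 0.756 without the block and of 0.000557 with it, under the limit of 1 log2. Under CsA it was 0.41 log2 (adjusted p = 0.0113 with the block). In Type D it was 0.11 log2 (adjusted p = 0.47 with the block), and the difference between types was -0.51 log2 (adjusted p = 0.0815 with the block). Of the cell type lists, the fibroblast gene Col1a2 (-2.86 log2, adjusted p = 0.00594) and the neuroendocrine gene Uchl1 (-2.08 log2, adjusted p = 0.0062) fell and the immune gene Cd68 rose (1.28 log2, adjusted p = 0.00766) in the same Type V comparison, and their part in the result was not tested.

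Hnf4a and Gata6 were slightly lower in Type D after restoration. Both changed by -0.33 log2, with adjusted p of 0.0274 for Hnf4a and 0.0316 for Gata6 with the block, and of 0.954 and 0.408 without it. Hnf4a went from 263, 235 and 167 TPM to 214, 169 and 145 TPM, each line lower, but under CsA it was higher in 2 of 3 lines and the change was 0.02 log2. Gata6 was lower in all 6 Type D pairs, with changes from -0.03 to -0.52 log2. Despite these changes Hnf4a and Gata6 in Restored Type D lines stayed above every Type V library.

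Sox9 varied most between libraries of a line and not the same way in all lines. In 4711-18 it was 16.8 TPM in Control and 44.1 TPM in Restored, and in the Type V line 4711-11 it was 24.8 and 9.30 TPM. Its changes were 0.62 log2 in Type D and -0.52 log2 in Type V, where 4716-10 had 0.19 log2. The difference between types was 1.14 log2 and was not called (adjusted p = 0.165 with the block and 1 without). For Foxa1, Sox2 and Nkx2-1 no adjusted p was under 0.05 with or without the block. Nkx2-1 in 4711-18, the only line where it exceeded 20 TPM, was 80.4 TPM in Control and 42.8 TPM in Restored, and 80.7 and 54.6 TPM with CsA. Sox2 in 4716-14 was 73.9 TPM in Control and 124 TPM in Restored.

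**Figure D4:**
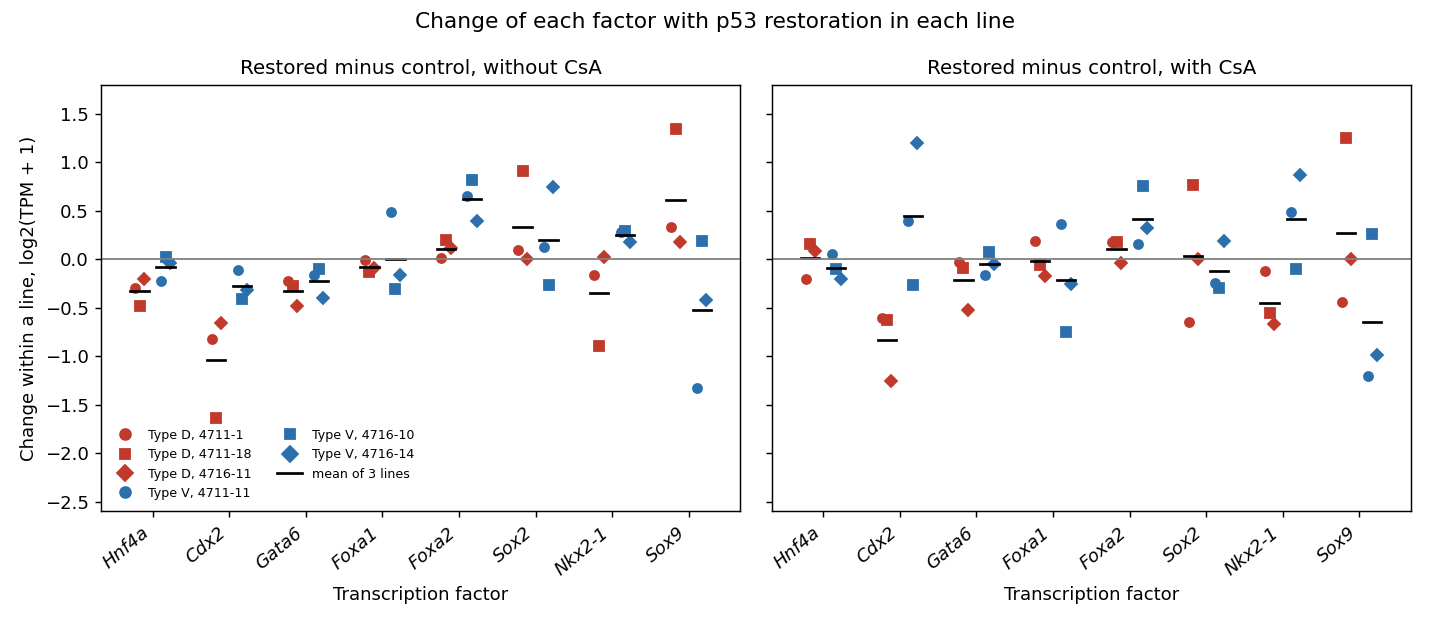
Change of each factor with p53 restoration within each line in log2(TPM + 1) (y axis), without CsA on the left and with CsA on the right, red for Type D and blue for Type V, with symbols for lines and black bars for means of 3 lines. Cdx2 was below 0 in all 6 Type D pairs and Foxa2 above 0 in all 6 Type V pairs.

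CsA alone called none of the 8 factors in either type, and none had an unadjusted p under 0.05 in limma without the block. With the block the lowest adjusted p of a factor in these comparisons was 0.53. CsA called 0 percent of genes in Type D, in Type V, and, when added to Restored, in Type V, where 114, 54 and 100 genes had an unadjusted p under 0.05. Added to Restored in Type D it called 0.0142 percent. The largest mean change of a factor on adding CsA to Control was -0.55 log2, for Cdx2 in Type V (adjusted p = 1).

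Genes related to the factors were read from lists of known genes. Of 19 paralogs of the 8 factors, 11 did not pass the filter, among them Cdx1, Cdx4, Gata5 and Nkx2-2. Of the 8 tested, only Gata2 was called in Control, lower in Type D (-1.37 log2, adjusted p = 0.0273), with at most 0.733 TPM in Type D and 4.99 TPM in Type V. Foxa3, of the family of Foxa1 and Foxa2, and Hnf4g, of that of Hnf4a, stayed at or under 5.26 and 3.09 TPM. The paralogs had a median difference of -0.81 log2, and 0 were called by limma in the other treatments or on line means, where 1 to 3 had an unadjusted p under 0.05. Nkx2-9 rose with p53 restored in Type V (2.503 log2, adjusted p = 0.0296). Genes of these and the following lists that are not among the called genes with the 4 largest differences were named after their values had been seen.

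Among 19 other factors of gut and liver endoderm, 17 were tested and 7 were called higher and 1 lower in Type D in Control, with a median difference of 1.52 log2. Onecut2, a liver and pancreas factor, was 15.8 to 42.7 TPM over the Type D libraries and 1.06 to 14.8 TPM in Type V. Hhex, a homeobox factor of the early liver, was 34.8 to 58.5 TPM in Type D and 4.62 to 16.4 TPM in Type V (2.68 log2 in Control, adjusted p = 2.58e-07), and it belongs to the study's Type D signature. Nr1h4, the bile acid receptor, and Klf4 differed by 2.45 and 2.44 log2. The gene that was lower was Vdr, the vitamin D receptor, at -2.21 log2. On line means 3 were called higher, Hhex, Klf4 and Klf5, and Vdr lower. In Control + CsA and in Restored 6 were called higher, and in Restored + CsA it was 2 (median 1.03 log2), with 1 lower in each. Pdx1, the factor of pancreas and duodenum, differed among Type D lines and was not called (3.54 log2, adjusted p = 0.274). With p53 restored, Klf4 rose in Type V by 1.49 log2 (adjusted p = 0.0411) and Hhex by 1.05 log2 (adjusted p = 0.00582).

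Products of gut and liver cells followed the same split in part. Of 17, 11 were tested and 5 were called higher in Type D, with a median of 0.76 log2 over the 11, and the same number was called on line means. Cldn2, a tight junction claudin of leaky epithelia, lay between 49.6 and 356 TPM in Type D and between 0.0672 and 13.6 TPM in Type V (6.13 log2 in Control, adjusted p = 1.74e-05). Cdh17, the liver-intestine cadherin, differed by 5.62 log2, Vil1, the actin-bundling protein of microvilli, by 3.98 log2, and Apob, the apolipoprotein of chylomicrons, by 2.81 log2. Fabp2 was the fifth. The albumin gene Alb was not called and had its highest level in Type V. It averaged 18.5 TPM in 4716-10 and reached 56.2 TPM there, against at most 7.11 TPM in Type D. In each of the other treatments 5 were called higher as well. Of the 6 genes that did not pass the filter, Sis, Muc2, Lct, Apoa4 and Apoc3 reached at most 0.557 TPM in any library. The sixth, the fatty acid binding protein gene Fabp1, was 223 TPM in Control of the Type D line 4711-18, between 0 and 223 TPM over its 4 libraries, and at most 0.406 TPM in the other 5 lines.

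Stomach products were higher too in part. Of 12, 8 were tested and 3 were called higher in Control, Vsig1 (5.27 log2), Ctse (5.06 log2) and Anxa10 (3.58 log2), with a median of 4.03 log2. On line means it was Vsig1 and Ctse. In Control + CsA 5 were called higher (median 4.07 log2), and in Restored and Restored + CsA it was 1 (medians 1.96 and 2.34 log2). Differences in these counts between treatments were not tested. Vsig1, a junction protein of the stomach, fell by 4.20 on the log2 scale with p53 restored in Type D (adjusted p = 0.000519), from 53.7, 100.2 and 87 TPM in Control to 1.97, 2.17 and 7.31 TPM in Restored. Vsig1 was the only gene of the gut, liver and stomach lists called in that comparison without the block, and the lists were not read with the block. In the Type V line 4716-10 it was 6.62 TPM in Control and 0.913 TPM in Restored. In 4711-11 and 4716-14 it reached at most 0.0719 and 0.198 TPM in any library.

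Other lung factors went both ways. Of 22, 19 were tested, 2 were called higher and 3 lower, and the median was -0.71 log2. Irx1 and Irx2, neighbouring homeobox genes of distal lung, were 44 to 124 TPM and 46.1 to 102 TPM in Type V and at most 0.109 and 0.243 TPM in Type D (-6.32 and -6.14 log2 in Control). Trp63, the basal cell factor, was also lower in Type D (-3.34 log2, adjusted p = 0.00619). Id2 and Etv5 were higher, by 1.43 and 1.37 log2. On line means Irx1, Irx2 and Trp63 were lower and Etv5 higher, and over the other treatments 1 to 2 were called higher and 3 to 4 lower. Of 17 lung products, 9 did not pass the filter, among them Sftpc, Scgb1a1 and Scgb3a2, and of the 8 tested Abca3 (1.76 log2) and Lyz2 (1.04 log2, at most 1.68 TPM) were called higher, with a median of 0.70 log2. On line means only Abca3 was called, and the count was 2, 1 and 0 in Control + CsA, Restored and Restored + CsA (3 of the 8 had an unadjusted p under 0.05 in limma in the last). The summed level of the 17 products had the other direction, with overlap. It was 110 to 494 TPM (median 178 TPM) in Type D and 142 to 753 TPM (median 493 TPM) in Type V.

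**Figure D5:**
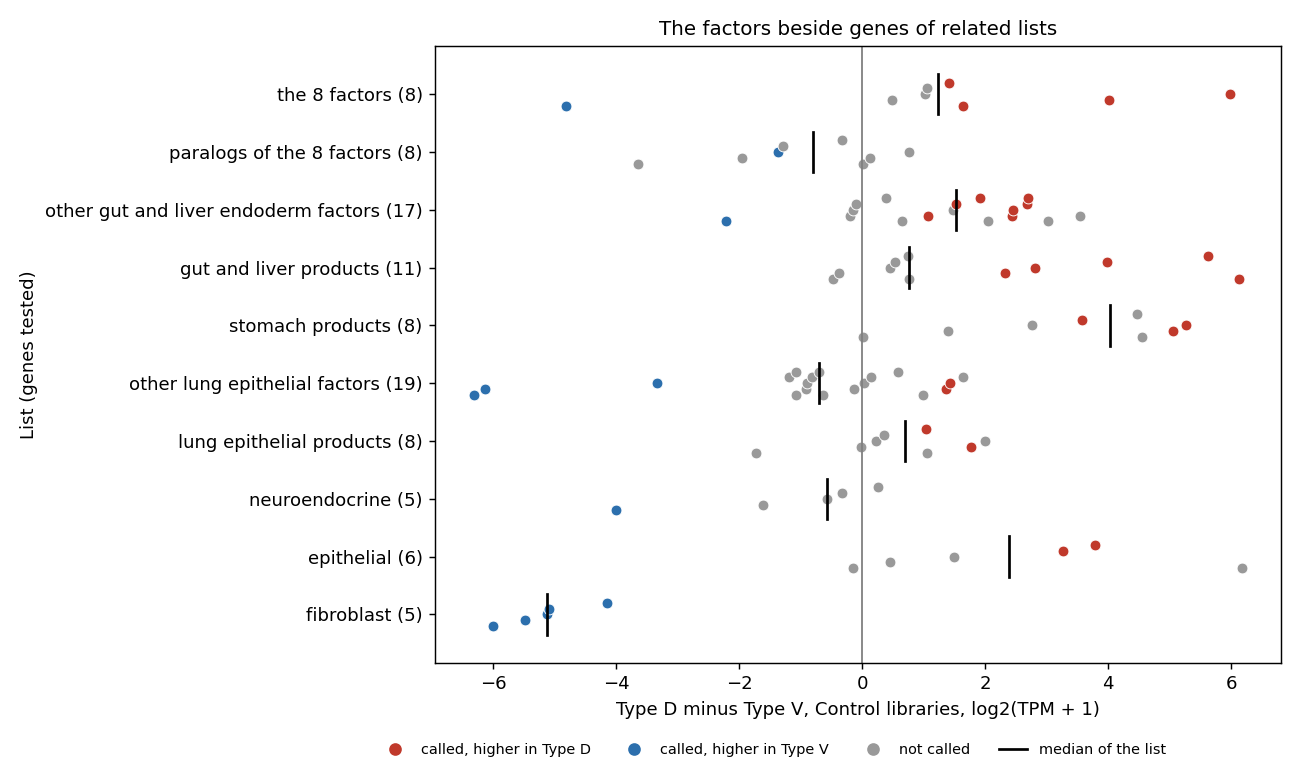
Type D minus Type V difference in Control in log2(TPM + 1) (x axis) for each tested gene of the 8 factors and of 9 further lists (rows, number of genes tested in parentheses), red for genes called higher in Type D, blue for genes called higher in Type V and grey for genes not called, with a black bar at the median of a list. The medians were 1.52 log2 for other gut and liver factors, -0.71 log2 for other lung factors and -5.13 log2 for the fibroblast list.

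The lines within a type were set apart by some of these genes, which were chosen after their values had been seen. In 4711-18, the line with most Nkx2-1, the surfactant protein gene Sftpb was 88.6 TPM in Control and 92.9 TPM in Control + CsA, and 1.24 and 1.29 TPM with p53 restored. In the other 5 lines it reached at most 1.55 TPM. Some stomach and duodenum genes were low in 4711-18, where Pdx1, Cldn18 and Tff2 averaged 0.252, 0.404 and 2.001 TPM over the 4 libraries. They averaged 103, 133 and 148 TPM in 4711-1 and 59.9, 84.8 and 61.5 TPM in 4716-11. Of the 8 stomach products tested, 6 had their lowest Type D mean in 4711-18, among them Ctse (29.2 TPM) and Psca (86.7 TPM), which were still expressed there. Vsig1 (47.4 TPM) and Muc5ac did not have it there, and Gkn2, which did not pass the filter, averaged 16.5 TPM in 4711-18 and at most 0.192 TPM in the other 5 lines. Hnf4a, Gata6 and Cdx2 did not follow this split, since their ranges in 4711-18 overlapped that of a neighbouring Type D line. The Type V line 4716-10, with most Hnf4a and Cdx2 of its type, had mean levels of 13.4 TPM for Onecut2, 7.15 TPM for Cdh17, 7.70 TPM for Ctse and 5.51 TPM for Pdx1, above those of both other Type V lines.

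The cell type lists moved with the types as well. Of the fibroblast list 5 genes were tested and all 5 were called lower in Type D in Control, with Col1a2 at -6.004 log2, Col1a1 at -5.49 log2, Dcn at -5.13 log2 and Pdgfrb at -5.10 log2, and 3 of the 5 on line means (Col1a2, Dcn and Pdgfrb). Of the epithelial list 6 were tested and Krt19 (3.78 log2) and Krt18 (3.26 log2) were called higher. Of 5 neuroendocrine genes tested Uchl1 was called lower (-4.01 log2). None of the 3 immune genes tested was called (0.11 log2 for Cd68 and -0.11 log2 for Cd79a), and the endothelial genes Pecam1 and Tek were at most 0.501 and 0.463 TPM. The part of these cell type differences in the levels of the 8 factors was not tested.

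The genes most like each factor were found by Pearson's r of log2(TPM + 1) over the 24 libraries, which share lines and are not independent. For Hnf4a they were Rassf6 (r = 0.993), Ly6g2 (0.988) and Cdc42ep5 (0.977). For Cdx2 they were Mlph (0.983), Nol4l (0.98) and again Cdc42ep5 (0.979), which was 115 to 291 TPM in Type D and 0.475 to 59.9 TPM in Type V. For Sox2 they were Zfp775 (0.975), Cgas (0.964) and Pdk4 (0.955). For Gata6 they were Vav3 (0.963), Dsc2 (0.962) and the Y-linked Eif2s3y (0.962), and for Foxa1 Ifi27l2b, Omp and Rab38 (0.956 to 0.958). For Foxa2 they were Plekhb2 (0.915), Alcam (0.897) and Stx1a (0.892), and for Sox9 Sdcbp (0.89), Tnfaip1 (0.877) and Mtrr (0.855).

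For Nkx2-1 the likest gene was Sfta3-ps (r = 0.886), its neighbour on the genome, followed by Cacna1h (0.856) and 4930480K23Rik (0.848). In the GENCODE annotation of GRCm38, Nkx2-1 lies at chr12:56531958-56536908 on the minus strand and Sfta3-ps ends 2531 bases from it. Sfta3-ps averaged 21.5 TPM in 4711-18, 1.70 TPM in 4716-11 and 0.0191 TPM in 4711-1, the order that Nkx2-1 had among Type D lines, and at most 1.16 TPM in Type V. After the group means were taken out, so that only deviations of lines within groups counted, the likest genes were Peg3 for Hnf4a (r = 0.995), Il1r1 for Cdx2 (0.985), Osr1 for Foxa2 (0.97), Zfp704 for Nkx2-1 (0.969), Mbnl3 for Sox2 (0.949), Ero1lb for Sox9 (0.94), Papss2 for Foxa1 (0.915) and Nub1 for Gata6 (0.894). Single lines weigh heavily in these values. Of the squared deviations of Hnf4a, 65.9 percent came from 4716-10, where Peg3 was 9.28 to 13.1 TPM, against at most 0.214 TPM in the other 5 lines. Of those of Nkx2-1, 56.6 percent came from 4711-1, and of those of Foxa2, 54.8 percent came from 4716-14.

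Among the factors themselves, Hnf4a and Cdx2 had the highest r over the 24 libraries (0.942), followed by Hnf4a with Foxa1 (0.918). Sox2 ran against Hnf4a (r = -0.932) and against Gata6 (-0.915). Nkx2-1 had no r above 0.437 with any other factor in either direction, and Foxa1 and Foxa2 had r of 0.181.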

How the data were processed

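RNA of 24 libraries (stranded poly(A) RNA-seq, single-end) was measured by the authors, and the deposited table holds TPM for 25239 genes in 1 column per library, made by the authors. The study's methods and the processing notes name different tools (Kallisto, HISAT2) and the notes 2 genome builds, so the aligner and build behind the TPM values are uncertain. TPM keeps no depth, so no counting error can be given. Columns were mapped to samples by the cell line and treatment they name, and 0 per-sample columns were left out.

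Genes with at least 1 TPM in at least 3 libraries were kept (14104). log2(TPM + 1) was fitted with limma 3.58.1 (R 4.3.3, trend) over 8 groups, and a gene was called at a Benjamini-Hochberg adjusted p under 0.05 over all genes tested and a difference of at least 1 log2. In the fit over 8 groups a p-value is set against the spread of lines within groups, pooled as if the libraries were independent. With the line as a block it is set against the spread left within lines. The comparisons were 14, namely types in each treatment, treatments in each type, the difference of the restoration responses, and types on 6 line means. Simulated data were used only for Restored minus Control in Type D, with and without the block, so the comparisons of types were not tested in this way.

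Libraries of a line share its label. After group means were removed, their deviations had r of 0.599 to 0.929 (36 pairs), so the line was also used as a replicate block. Between different lines of a type r was -0.727 to 0.0438 (96 pairs). Removing a group mean pushes these values below 0 by itself, so they do not measure how far lines differ.

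The factors and lists were chosen with earlier results of these data known. Named were all 8 factors, Trp53, up to 4 called genes per list with the largest Control difference (or the 2 most abundant), and the 3 genes likest each factor. The fits were repeated without a filter, with a minimum of 5 TPM, with 0.1 as pseudocount, with quantile and with median-ratio scaling, on only the groups compared, with the block, and without each line. Python 3.11.15, numpy 2.4.6, pandas 2.3.3 and matplotlib 3.10.9 were used for tables and plots.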

Additional observations from a re-analysis of the deposited data

How the results depend on the processing

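Of the alternatives that left no line out, 368 values kept direction and side of the threshold, 13 lost a call, 1 gained one and 4 changed direction, and of those that left a line out it was 326, 29, 5 and 12. Most of the results covered were not called to begin with, so they had no call to lose. With only the groups compared, 3 factors were called in Control (Gata6, Hnf4a and Sox2) and 2 in Control + CsA (Gata6 and Sox2). With no filter, 0 were called on line means. There more genes were adjusted for, and the spread was also estimated anew with the genes of low values. The parts of these in the lost calls were not tested. The replicate block (cell line) called 1 factor in Restored minus Control of Type D, Cdx2, and changed no other call of a factor. With the block and without a line, chosen after seeing the data, it called 0 to 1 factor there, and Sox9 in Type V under CsA without 4716-10 (-1.10 log2, adjusted p = 0.0316). No paired analysis was possible because each line belongs to 1 type, for the comparisons of types. Leaving out a line gave 3 to 5 called factors in Control and in Control + CsA, and 0 to 5 on line means. Except for the block with all lines, the share of all genes called in these fits was not counted. A change in these counts thus cannot be told apart from a change in calls over all genes.

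With a pseudocount of 0.1 the Nkx2-1 difference was -0.46 log2 in Restored and -0.24 log2 in Restored + CsA. The restoration change of Foxa1 in Type V was -0.0622 log2 with quantile and -0.024 log2 with median-ratio scaling. Over the lines left out, Nkx2-1 ranged from -0.42 to 2.68 log2 in Control, from -0.13 to 2.89 in Control + CsA, from -0.74 to 1.99 in Restored, from -0.94 to 1.86 in Restored + CsA and from -0.56 to 2.35 on line means. Sox9 ranged from -0.24 to 0.95 log2 in Control and from -0.25 to 0.99 in Control + CsA. Foxa2 ranged from -0.38 to 1.22 log2 in Restored, from -0.25 to 1.07 in Restored + CsA and from -0.0749 to 1.38 on line means. The restoration change in Type V ranged from -0.24 to 0.16 log2 for Foxa1 and from -0.0687 to 0.434 log2 for Sox2. The cause of these changes was not tested. With 3 lines a type and unknown depth, levels near 0 TPM cannot be ordered.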
